A study of Mus musculus with 12 samples.

Results

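Osteoclasts from Notch2 mutant mice were compared with osteoclasts from wild type mice, both with an intact Hes1 gene. The comparison took the 3 libraries titled as Notch2 mutant with Hes1 loxP and the 3 titled as wild type with Hes1 loxP, which are 6 of the 12 bulk RNA libraries of the study. The other 6 libraries carry a Hes1 deletion, again 3 wild type and 3 Notch2 mutant, and appear here only where the Notch2 difference is set beside its value without Hes1. Per the labels, all mice were male and 7 to 8 weeks old, and the design text describes the controls as littermates. Bone marrow macrophages were grown with M-CSF at 30 ng/ml, and M-CSF with RANKL was given from day 3 for 4 days until osteoclasts had formed. Both groups carry the loxP sites around Hes1, so that the sites are no difference between them. The labels do not name the Notch2 mutation, the cells that carry it or the number of animals behind a culture. They call the samples biological replicates. The p-values of the fit measure only the spread between cultures, pooled over all 4 groups.

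Osteoclasts are multinucleated cells that form when macrophage precursors fuse, and they dissolve bone mineral with acid and bone matrix with proteases. M-CSF keeps the precursors alive and RANKL directs them to the osteoclast fate. Notch2 is a receptor whose intracellular part, once cut free by a ligand, enters the nucleus and joins the DNA-binding protein RBPJ to activate genes such as those of the Hes and Hey repressor families. Hes1 is one of those repressors. The title of the study names osteoclast maturation, metabolism and the transcriptome as the processes in which NOTCH2 was examined.

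The 6 libraries held 13832368 to 19293772 counts in genes, and 13403 genes entered the test. Within each group the chi-square over the replicates came to 3.61 to 7.78 per gene, more than counting noise gives. On the first principal component, which held 28.4% of the variance of the 6 libraries, the wild type libraries lay at 24.06, 9.13 and 5.12 and the mutant libraries between -14.26 and -10.51. Wild type replicate 1 was the outermost library on it. All 10 defining osteoclast markers were detected. Their summed level, without the most abundant, Mmp9, averaged 20100 ± 514 CPM in wild type libraries against 23800 ± 914 CPM in mutant ones (SD, n = 3 each here and below). CPM is the count scaled to the library's total counts in genes. Of the macrophage markers 13 of 13 were detected, and without Csf1r they summed to 1360 to 1580 CPM in wild type, above the mutant range of 1100 to 1210 CPM. Markers of stromal cells and osteoblasts, 24 of them without Spp1, which osteoclasts also express, summed to 370, 338 and 315 CPM in wild type and 247, 146 and 300 CPM in the mutant. With Spp1 the stromal sums overlapped, at 1240 to 1410 CPM in wild type and 1020 to 1290 CPM in the mutant. Bglap2, an osteocalcin gene, was at 0 in all 6 libraries, while Col1a1 had 901 to 2265 counts. Neutrophil markers without Mmp9 summed to 388 to 482 CPM in wild type, overlapping the mutant range of 303 to 393 CPM. In bulk RNA, fewer cells of a type and less RNA per cell cannot be told apart.

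**Figure D1:**
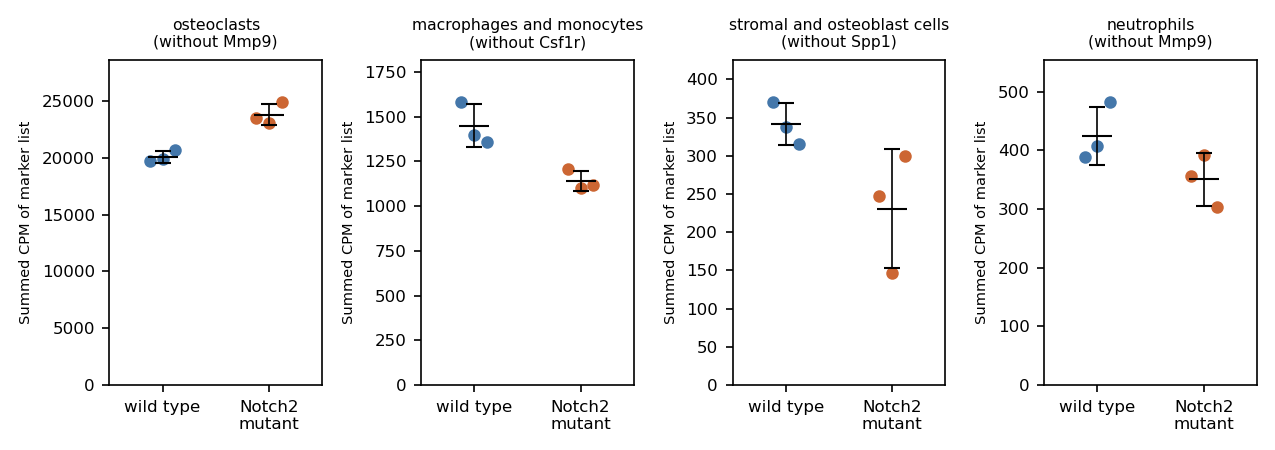
Summed CPM of 4 marker lists in each library (points), with mean and SD (black bars), in wild type (blue) and Notch2 mutant (orange) Hes1 loxP osteoclasts. Each list is summed without its most abundant gene (Mmp9 for osteoclasts and neutrophils, Csf1r for macrophages, Spp1 for stromal cells). So summed, the osteoclast sum is higher and the macrophage and stromal sums are lower in all 3 mutant libraries, while the neutrophil sums overlap. With Csf1r and Spp1 kept, the macrophage and stromal sums overlap between the groups.

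More genes were lower than higher in the Notch2 mutant, and the lower genes included genes of the matrix, chemokines and macrophage surface proteins. With an adjusted p under 0.05 in edgeR's quasi-likelihood test, 104 genes (0.776% of those tested) differed, and 1897 genes (14.2%) had an unadjusted p below that level. Of these, 85 were lower (0.634%) and 19 were higher (0.142%) in the mutant. The lower genes also had the larger changes, with a median log2 fold change of -0.50 against 0.31 for the higher genes. A change of more than 2-fold was seen for 14 of the lower genes and for 1 higher gene, Il1b. Over all genes tested the median was 0.003, 50.9% of genes had a positive value, and 90% of genes lay between -0.41 and 0.35. All 104 encode proteins, and for each the 3 mutant values lay entirely outside the wild type range, which held for 18.3% of all genes tested.

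The calls were not equally firm. Leaving out each of the 6 libraries in turn, 15 genes were called every time, among them Tnc, Thbs2, Slpi, Pdpn, Ccl12, Ccl6, Pf4, C3ar1, Msr1, Siglec1, Cd36, Stab1, Clec4d and Hif1a. The number of called genes was 27 without wild type replicate 1, 35 without wild type replicate 2, 47 without mutant replicate 2 and 28 without mutant replicate 3. It was 111 without wild type replicate 3 and 103 without mutant replicate 1. A fit with the level of the stromal markers (their average log2 CPM in each library) as a covariate called 2 genes, of which Tnc alone was among the 104. That level was 2.83 to 2.96 in wild type and 1.74 to 2.55 in mutant libraries, without overlap. The covariate therefore takes up part of the group difference, and this fit cannot separate them. All 104 kept their sign in each of these fits.

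**Figure D2:**
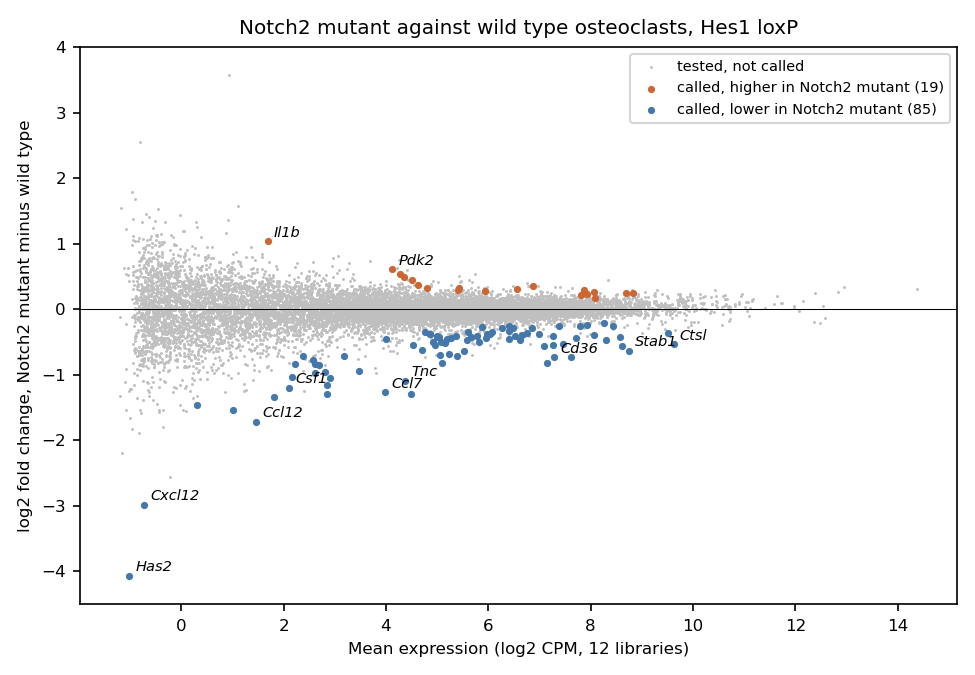
Log2 fold change (Notch2 mutant minus wild type, Hes1 loxP) against mean log2 CPM over 12 libraries for the 13403 genes tested, with the 85 lower (blue) and 19 higher (orange) called genes. Called genes below zero outnumber and outreach those above it, and points far from zero at low expression are mostly not called.

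The genes of the extracellular matrix and its turnover that passed the test were all lower in the mutant, and they were a minority of each list. Of 38 tested matrix glycoproteins and matricellular proteins 7 fell and none rose, and 37 lay below zero. The list median was -0.50 on the log2 scale. The 7 were Tnc, Tnn, Thbs1, Thbs2, Vcan, Emilin2 and Has2. Among 21 collagens Col12a1 and Col6a3 fell, with a list median of -0.27, and among 33 matrix proteases and their inhibitors Timp1, Timp3, Serpinb2 and Mmp8 fell, with a median of -0.18. Over all genes tested the median was 0.003, 0.634% were called lower and 50.9% had a positive value.

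Tnc encodes tenascin-C, a matrix glycoprotein made at sites of tissue remodelling. It was at 22.7, 26.1 and 23.6 CPM in wild type replicates 1 to 3 and at 11.3, 10.4 and 11.8 CPM in mutant replicates 1 to 3. The replicates of each group lay close together and the groups were well apart. Its log2 fold change was -1.09 ± 0.10 (SE), with an edgeR adjusted p of 2.09e-05. The stromal sums of the mutant libraries were 247, 146 and 300 CPM, in the same order as their Tnc values. Those of the wild type libraries were 370, 338 and 315 CPM, not in the order of their Tnc values. Tnc (ENSMUSG00000028364) lies on chromosome 4, 63959785 to 64047015, on the minus strand (GRCm38), and 8030451A03Rik overlaps it on the other strand.

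The promoter of Tnc is shown because this gene gave the smallest adjusted p of the comparison and RBPJ is the protein through which Notch receptors act on DNA. Capitals mark the core letters of the RBPJ motif, TGGGAA on either strand (TTCCCA when reversed), and a TATA box, TATAAA. The window holds the 250 bases before the start site, from RefSeq, GRCm38.p6.
Tnc promoter (chr4:64047016-64047265, minus strand): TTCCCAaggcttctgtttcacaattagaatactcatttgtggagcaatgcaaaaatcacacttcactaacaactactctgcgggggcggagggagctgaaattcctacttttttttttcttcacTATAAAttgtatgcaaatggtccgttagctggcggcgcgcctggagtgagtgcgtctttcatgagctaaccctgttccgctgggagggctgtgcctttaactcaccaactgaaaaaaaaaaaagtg
TTCCCA begins 250 bases and TATAAA begins 126 bases before the start, and another TGGGAA, not printed whole, spans the start itself. These positions hold for the start shown. From another RefSeq start of Tnc, further into the gene, that TGGGAA begins 81 bases and the TATAAA 205 bases upstream. Of 12408 promoter windows of 300 bases of tested genes, 23.1% hold TGGGAA on either strand and 7.11% hold TATAAA. Only 62 of the 85 lower genes and 15 of the 19 higher genes had a promoter in the table, fewer than 80%, so the shares in called genes are not compared.

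Tenascin-N (Tnn), a relative of tenascin-C, was at 3.03, 3.21 and 3.11 CPM in wild type and 0.94, 0.949 and 1.69 CPM in the mutant (log2 fold change -1.34 ± 0.26). Thbs2, thrombospondin 2, a secreted matricellular protein, had 7.06, 12 and 9.79 CPM in wild type and 3.47, 4.30 and 5.01 CPM in the mutant (-1.15 ± 0.18). Tnxb, the third tested tenascin, was at 0.62 ± 0.19 and not called (edgeR adjusted p = 0.133). For Tnn and Thbs2 the highest mutant library, replicate 3, stayed below the lowest wild type library. The fibril-associated collagen Col12a1 had 8.94, 11.2 and 8.12 CPM in wild type and 5.06, 3.18 and 5.34 CPM in the mutant (-1.05 ± 0.21). Col6a3, a chain of beaded-filament collagen VI, had 16.1, 13.4 and 12.1 CPM in wild type and 6.58, 6.09 and 8.32 CPM in the mutant (-0.95 ± 0.17). In both collagen genes mutant replicate 2 was the lowest library, as it was in the stromal sum. Among the wild type libraries Col6a3 ran in the order of the stromal sums (370, 338 and 315 CPM) and Col12a1 did not. The fibrillar collagen genes Col5a1 (-0.64 ± 0.17, edgeR adjusted p = 0.0872) and Col1a1 (-0.54 ± 0.18, edgeR adjusted p = 0.159) were not called. Vcan, the large proteoglycan versican, went from 162 ± 11 to 109 ± 6.87 CPM (-0.56 ± 0.10). Thbs1 (-0.39 ± 0.08) and Emilin2 (-0.21 ± 0.05), 2 more matrix glycoproteins, had the smallest changes of the group.

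Some inhibitors of proteases also fell. Timp3, a tissue inhibitor of metalloproteinases that binds the matrix, had 10.4, 9.59 and 5.62 CPM in wild type and 3.47, 2.57 and 4.16 CPM in the mutant (-1.29 ± 0.23, edgeR adjusted p = 0.0136). Its relative Timp1 had 8.00, 7.52 and 7.95 CPM in wild type and 4.77, 2.62 and 4.61 CPM in the mutant (-0.95 ± 0.19). Timp2, the third tested member of the family, was at 0.08 ± 0.08 and not called. Serpinb2, plasminogen activator inhibitor 2, had 2.45, 3.58 and 3.56 CPM in wild type and 0.795, 0.502 and 1.91 CPM in the mutant (-1.54 ± 0.34, or -2.32 without mutant replicate 3). Slpi, a secreted inhibitor of leukocyte proteases, went from 57.2 ± 5.85 to 34.5 ± 6.37 CPM (-0.71 ± 0.10). The collagenase gene Mmp8, also a neutrophil gene, went from 45.4 ± 3.10 to 32.6 ± 0.888 CPM (-0.46 ± 0.10), while the neutrophil marker sums overlapped between groups. The part of neutrophils in the Mmp8 difference was not tested.

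Has2, which encodes a hyaluronan synthase, was nearly absent from the mutant. Its counts were 14, 15 and 12 in wild type and 1, 0 and 1 in the mutant. The summed counts had a mutant to wild type ratio of 0.0504 after scaling to depth (95% counting interval 0.00590 to 0.194), and 0.0789 (0.00925 to 0.304) without mutant replicate 2. The antisense gene Has2os overlaps it. With so few counts Has2 lay outside the rule for values of every library, and it is described because its values had been seen.

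Further called genes were Cald1, Tagln, Pdpn, Gja1, Pmp22 and Lgals1, which belong to no matrix list. Cald1, which encodes the actin-binding protein caldesmon, had 9.59, 5.86 and 7.12 CPM in wild type and 4.34, 3.35 and 4.61 CPM in the mutant (-0.84 ± 0.18). Tagln, another actin-binding protein and one of the stromal markers, was at -0.83 ± 0.19. The surface glycoprotein Pdpn (podoplanin) had 6.63, 5.65 and 7.12 CPM in wild type and 2.39, 3.52 and 3.32 CPM in the mutant (-1.03 ± 0.18). In contrast to the collagens, Pdpn was lowest in mutant replicate 1. The gap junction gene Gja1 (-0.41 ± 0.09), the myelin protein gene Pmp22 (-0.51 ± 0.10) and the galectin gene Lgals1 (-0.26 ± 0.05) fell less.

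Of these 20 genes Tnc, Thbs2, Slpi and Pdpn were called whichever of the 6 libraries was left out. Without wild type replicate 1, or without mutant replicate 2, 15 of the 20 were not called, with edgeR adjusted p up to 0.201 and 0.108. Without wild type replicates 2 and 3, 14 and 7 were not called, and without mutant replicates 1 and 3, 6 and 10. The collagen median was -0.15 without wild type replicate 1, -0.51 without mutant replicate 1 and -0.67 without mutant replicate 3. The median of the protease and inhibitor list was -0.09 without wild type replicate 2, -0.11 without mutant replicate 1 and -0.09 without mutant replicate 2. With the stromal score as a covariate the medians were -0.06 for matrix glycoproteins, 0.12 for collagens and -0.01 for proteases and inhibitors, and Col1a1 was at 0.16. The score itself includes Col1a1 and other collagen genes, so these are partly adjusted for themselves. It also did not overlap between the groups. The part of stromal cells in these differences was therefore not tested.

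**Figure D3:**
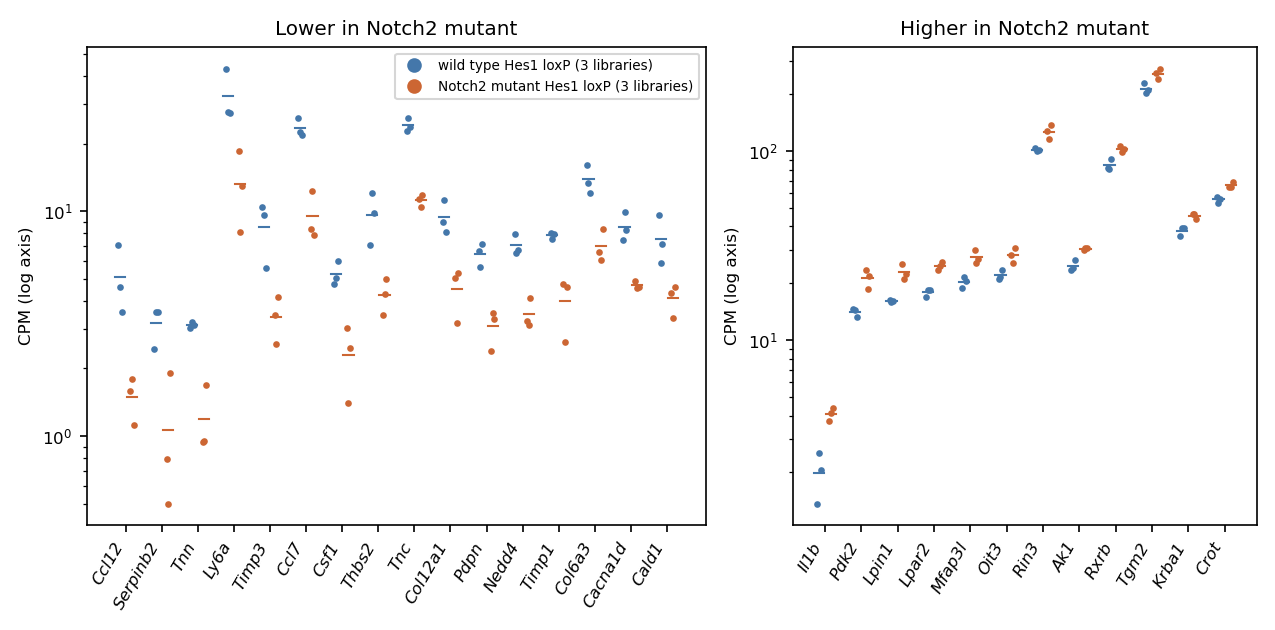
Level in CPM on a log axis in each library (points) with the group mean (line), wild type (blue) and Notch2 mutant (orange) Hes1 loxP, for the 16 lower and 12 higher genes with the largest changes. Only genes whose groups did not overlap were eligible. The 3 mutant points therefore lie on one side of the 3 wild type points by selection. Gaps between the groups are wider among the lower genes.

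Secreted chemokines had the lowest median of the 44 lists of pathways and functions, while the stromal marker list lay lower still, at -0.62 (-0.31 without mutant replicate 2). Of 20 tested chemokines 5 fell (Ccl6, Ccl7, Ccl12, Cxcl12 and Pf4), none rose and 16 lay below zero. The list median was -0.55 on the log2 scale, against 0.003 over all genes, of which 0.634% were called lower and 50.9% had a positive value. The groups did not overlap, mutant below wild type, for 12 of the 20, against 8.51% of all genes tested.

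Ccl12, a chemokine that draws monocytes through the receptor CCR2, had 7.06, 4.61 and 3.56 CPM in wild type and 1.59, 1.79 and 1.12 CPM in the mutant. The lowest wild type library, replicate 3, was still above the highest mutant library. The log2 fold change was -1.72 ± 0.27, with an edgeR adjusted p of 0.0066. Its neighbour Ccl7, another monocyte chemokine that starts 56133 bases away on chromosome 11, had 26.0, 22.5 and 21.8 CPM in wild type and 8.31, 12.3 and 7.87 CPM in the mutant (-1.27 ± 0.25, edgeR adjusted p = 0.0196). Mutant replicate 2 was the highest of the mutant libraries for both chemokines, while it was the lowest in the stromal sum. The wild type values of both chemokines ran in the order of the wild type stromal sums (370, 338 and 315 CPM). The part of stromal cells in the chemokine differences was not tested. Ccl2, the third monocyte chemokine of the cluster, went from 67.1 ± 4.55 to 40.4 ± 4.88 CPM and was not called (-0.71 ± 0.19, edgeR adjusted p = 0.0842). Ccl8, which lies just beyond Ccl12, was at -0.97 ± 0.31 and was not called either (edgeR adjusted p = 0.153). These last values were chosen after they were seen, to describe the cluster.

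The promoter of Ccl12 is shown as that of the called gene with the largest fold change at a mean log2 CPM of at least 1, with the same capitals, source and build.
Ccl12 promoter (chr11:82101595-82101844, plus strand): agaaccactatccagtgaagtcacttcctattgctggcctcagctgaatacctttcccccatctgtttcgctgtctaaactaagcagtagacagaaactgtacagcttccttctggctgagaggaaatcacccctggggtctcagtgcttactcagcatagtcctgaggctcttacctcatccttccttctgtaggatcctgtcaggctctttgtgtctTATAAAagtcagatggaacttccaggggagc
TATAAA begins 31 bases before the start, and TGGGAA is not found on either strand of the window.

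Further along chromosome 11, Ccl6, a chemokine made by myeloid cells, went from 190 ± 42.1 to 105 ± 8.44 CPM (-0.83 ± 0.11, edgeR adjusted p = 0.00253). Pf4, a chemokine of platelets that macrophages also make, went from 51.5 ± 4.12 to 31.5 ± 2.74 CPM (-0.69 ± 0.08, edgeR adjusted p = 0.00109). Of the 14 erythroid and megakaryocyte markers 7 were at 0 in all 6 libraries, and those other than Pf4 summed to 2.87 ± 0.460 CPM in wild type against 3.32 ± 0.409 CPM in mutant libraries. Cxcl12, a chemokine of stromal cells, had 10, 13 and 13 counts in wild type and 3, 0 and 1 in the mutant. Their ratio was 0.115 (95% counting interval 0.0297 to 0.320), or 0.0398 (0.000981 to 0.236) without mutant replicate 1 and 0.180 (0.0465 to 0.502) without mutant replicate 2. Cxcl12 is itself one of the stromal markers.

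Of 15 tested receptors for chemotactic signals 3 fell and none rose, while 0.634% of all genes tested were called lower. Among those that fell, C3ar1, the receptor for complement fragment C3a, was at -0.44 ± 0.07 and Fpr1, a receptor for bacterial peptides, at -0.42 ± 0.10. The list as a whole did not lean one way, with 8 positive and 7 negative values. Its median was 0.12, but -0.05 without wild type replicate 2, 0.03 without mutant replicate 1, 0.06 without mutant replicate 2 and -0.02 with the stromal covariate. C3ar1 was also the 1 called gene of 18 complement genes, whose median was -0.24, or -0.13 without wild type replicate 1. In that list C1qa (-0.43 ± 0.12) and C1qb (-0.40 ± 0.11) were not called. The cytokine receptor gene Il21r was at -0.62 ± 0.11.

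Csf1, the gene of M-CSF itself, had 4.76, 5.03 and 6.01 CPM in wild type and 3.04, 1.4 and 2.47 CPM in the mutant (-1.20 ± 0.24, edgeR adjusted p = 0.0247). Mutant replicate 2, the lowest in the stromal sum, was also lowest for Csf1. In wild type the Csf1 values ran opposite to the stromal sums (370, 338 and 315 CPM). The cytokine was in the medium of all cultures. Among these chemokine, receptor and cytokine genes Ccl12, Ccl6, Pf4 and C3ar1 were called whichever of the 6 libraries was left out. Csf1 and Cxcl12 were not called without wild type replicate 1, 2 or 3 or mutant replicate 2 or 3, and Ccl7 not without wild type replicate 1 or 2 or mutant replicate 1 or 3. Il21r was not called without wild type replicate 1 or mutant replicate 2 or 3, and Fpr1 not without any single library but mutant replicate 3. Across these cases the edgeR adjusted p lay between 0.0509 and 0.190.

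Some surface proteins of macrophages, the precursors from which these osteoclasts were grown, fell in the mutant. Of 26 macrophage and monocyte identity genes 4 fell, none rose and 20 had negative values (median -0.20). Of 28 phagocytic and scavenger receptors 6 fell and none rose (median -0.21). Among all genes tested 0.634% were called lower and 50.9% had a positive value. The macrophage marker sum without Csf1r moved in the same direction, while the sum with Csf1r overlapped between groups, as given above. Of the 13 macrophage markers 10 had negative and 3 positive values, Csf1r among the latter. The lower values and a smaller macrophage share of the RNA cannot be told apart.

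Siglec1 (sialoadhesin, CD169), a lectin of resident macrophages, went from 246 ± 35.4 to 146 ± 26.1 CPM (-0.73 ± 0.11, edgeR adjusted p = 0.0066). The scavenger receptors Cd36 (201 ± 39.9 to 120 ± 8.24 CPM, -0.73 ± 0.11), Msr1 (376 ± 27.6 to 267 ± 6.35 CPM, -0.47 ± 0.08) and Stab1 (565 ± 13.5 to 359 ± 47.7 CPM, -0.63 ± 0.09) fell as well. Cd36 takes up fatty acids and oxidised lipoproteins, Msr1 modified lipoproteins, and Stab1 cell debris and matrix fragments. For Cd36 and Msr1 wild type replicate 1 was the highest library, whereas for Stab1 the 3 wild type libraries lay together between 555 and 580 CPM. Fcgr1, the high-affinity receptor for immunoglobulin G, went from 42.2 ± 10.4 to 23.3 ± 3.24 CPM (-0.83 ± 0.14), again with wild type replicate 1 highest at 53.9 CPM. Adgre1, which encodes the macrophage marker F4/80, was at -0.42 ± 0.08. Lrp1, an endocytic receptor with many ligands, was at -0.36 ± 0.07, and Dab2, an adaptor of endocytosis, at -0.53 ± 0.11. The mannose receptor gene Mrc1 just missed the threshold (-0.59 ± 0.14, edgeR adjusted p = 0.0520).

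Ly6a, the surface protein Sca-1, had 43.0, 27.6 and 27.3 CPM in wild type and 18.5, 8.10 and 12.9 CPM in the mutant (-1.29 ± 0.24, edgeR adjusted p = 0.0166). Replicate 1 was the highest of both groups and replicate 2 the lowest of the mutant. Smaller changes were seen in Cd93 (-0.46 ± 0.09) and in Bst1 (-0.50 ± 0.10), a surface enzyme of stromal and myeloid cells. Trf, transferrin, the iron carrier, was at -0.55 ± 0.10. Ctsl, the lysosomal protease cathepsin L, went from 941 ± 43.5 to 641 ± 15.9 CPM (-0.53 ± 0.09, edgeR adjusted p = 0.0136). It was the only called gene of 37 lysosomal proteins, while 0.634% of all genes tested were called lower. The median of the lysosomal list was 0.03, with 0.05 and 0.02 without wild type replicates 1 and 2, and 0.06 and 0.01 without mutant replicates 2 and 3.

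Some of these genes lie side by side in the genome. The Ms4a genes, which encode tetraspanning membrane proteins of leukocytes, form a cluster on chromosome 19, in which Ms4a4a, Ms4a7, Ms4a6b and Ms4a6d start within 265565 bases of each other and all fell (-0.71 ± 0.15, -0.54 ± 0.11, -0.52 ± 0.09 and -0.42 ± 0.08). All 10 tested members had negative values, with a median of -0.43, and Ms4a6c just missed the threshold (-0.38 ± 0.09, edgeR adjusted p = 0.0520). Over all genes tested 50.9% had a positive value and 0.634% were called lower. The family was singled out after its values were seen, and reads may be shared between its similar members. On chromosome 6 the C-type lectin receptor genes Clec4d (187 ± 15.5 to 125 ± 6.37 CPM, -0.55 ± 0.08) and Clec4a1 (-0.28 ± 0.06) fell together with their neighbour C3ar1.

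Of these 19 macrophage-related genes Msr1, Siglec1, Cd36, Stab1 and Clec4d were called whichever of the 6 libraries was left out. Without mutant replicate 3, 13 were not called, without wild type replicate 1, 12, without wild type replicate 2, 10, and without mutant replicate 2, 9, with edgeR adjusted p up to 0.184. Wild type replicate 3 and mutant replicate 1 mattered for 2 and 3 of them. The median of the macrophage identity list was -0.11 without wild type replicate 1 and -0.12 without mutant replicate 2, and that of the phagocytic receptors -0.13 without wild type replicate 1. With the stromal covariate these medians were -0.08 and -0.11.

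Inside the cell, genes of transcription control and of the interferon response were among the lower ones. Hif1a, the oxygen-regulated transcription factor, went from 121 ± 8.48 to 92.3 ± 6.42 CPM (-0.37 ± 0.06, edgeR adjusted p = 0.0066) and was called whichever of the 6 libraries was left out. Maf, a transcription factor of macrophages, was at -0.38 ± 0.09. Cebpb, a transcription factor of myeloid cells, went from 71.2 ± 10.3 to 51.5 ± 4.84 CPM (-0.44 ± 0.09, edgeR adjusted p = 0.0243) and was the 1 called gene of 15 tested repressors of osteoclast formation, of which 13 had negative values. Over all genes tested 0.634% were called lower and 50.9% had a positive value. The median of the repressor list was -0.10, or -0.04 both without wild type replicate 1 and without mutant replicate 2, and -0.05 with the stromal covariate. The 2 other members with the smallest p were Rbpj (-0.18 ± 0.05, edgeR adjusted p = 0.0625) and Id1 (-0.55 ± 0.15, edgeR adjusted p = 0.0956).

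Of 49 interferon-stimulated genes 45 had negative values, with a median of -0.33, while 2 fell: Ifitm3, which blocks virus entry (-0.40 ± 0.08), and Oasl1 (-0.37 ± 0.08). Among all genes tested 50.9% had a positive value and 0.634% were called lower. Dhx58, an RNA sensor (-0.41 ± 0.10, edgeR adjusted p = 0.0520), and Ifi44 (-1.25 ± 0.29, edgeR adjusted p = 0.0525) lay just beyond the threshold. Without wild type replicate 1 the list median was -0.16, and with the stromal covariate it was -0.21. Outside that list, Slfn4 (-0.69 ± 0.14), Rnf213 (-0.57 ± 0.10), Phf11d (-0.45 ± 0.10), the nucleic acid sensor Tlr13 (-0.29 ± 0.06) and the endolysosomal peptide transporter Slc15a3 (-0.47 ± 0.10) also fell.

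Of the remaining lower genes whose mean log2 CPM reached 1, a ubiquitin ligase and a calcium channel gene had the largest changes. Nedd4, the ubiquitin ligase, had 7.93, 6.53 and 6.73 CPM in wild type and 3.25, 3.13 and 4.11 CPM in the mutant (-0.98 ± 0.18, edgeR adjusted p = 0.0160). Cacna1d, a pore subunit of an L-type calcium channel, had 7.42, 9.95 and 8.23 CPM in wild type and 4.92, 4.58 and 4.61 CPM in the mutant (-0.85 ± 0.16, edgeR adjusted p = 0.0158). The mutant libraries of Cacna1d were nearly equal and all below the lowest wild type value. Others included Dock2, which drives the migration of leukocytes (-0.25 ± 0.05), Sgpp1, a sphingosine phosphate phosphatase (-0.35 ± 0.08), Slc7a8, an amino acid transporter (-0.41 ± 0.07), and Igfbp4, which binds insulin-like growth factors (-0.45 ± 0.09). Of the 36 intracellular and remaining lower genes 33 were not called without mutant replicate 3, 31 without wild type replicate 1, 27 without mutant replicate 2 and 26 without wild type replicate 2, with edgeR adjusted p up to 0.190. Without wild type replicate 3 and mutant replicate 1, 11 and 12 were not called. Of the genes with values above, Rnf213 and Slc7a8 were lost only without wild type replicate 2 or mutant replicate 3. Maf, Oasl1, Phf11d, Tlr13, Dock2, Cacna1d and Igfbp4 were lost in both of those fits and in others as well.

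The 19 higher genes include enzymes of energy and lipid metabolism, signalling proteins, an osteoclast fusion gene, a proton pump subunit and a cytokine. Their changes were small apart from Il1b, the inflammatory cytokine interleukin 1 beta. It had 1.37, 2.54 and 2.06 CPM in wild type and 3.76, 4.13 and 4.39 CPM in the mutant (1.04 ± 0.22, edgeR adjusted p = 0.0328). The lowest mutant library was above the highest wild type library, at a low level in both groups (105 and 204 summed counts). The antisense gene Il1bos overlaps it. Il1b was not called without wild type replicate 1 or 3 or without mutant replicate 2 or 3.

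The promoter of Il1b is shown as that of the higher gene with the largest change, with the same capitals, source and build.
Il1b promoter (chr2:129371140-129371389, minus strand): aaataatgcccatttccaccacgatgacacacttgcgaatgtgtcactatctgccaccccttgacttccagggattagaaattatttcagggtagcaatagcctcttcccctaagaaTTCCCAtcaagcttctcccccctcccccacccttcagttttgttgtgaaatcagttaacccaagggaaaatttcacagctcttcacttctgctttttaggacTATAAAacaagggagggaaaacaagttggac
TTCCCA, the reversed RBPJ core, begins 133 bases and TATAAA 31 bases before the start, the latter at the same place as in Ccl12, which changed in the opposite direction.

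Among metabolic genes Pdk2, a kinase that switches off pyruvate dehydrogenase, had 14.6, 14.4 and 13.3 CPM in wild type and 23.5, 18.7 and 21.8 CPM in the mutant (0.62 ± 0.10, edgeR adjusted p = 0.0127). Lpin1, a phosphatidate phosphatase on the way to triglycerides, had 16.4, 15.9 and 16.2 CPM in wild type and 25.4, 21.2 and 22.4 CPM in the mutant (0.53 ± 0.11). In both genes mutant replicate 1 was highest and replicate 2 lowest, and every mutant library was above wild type. Ak1, adenylate kinase 1, which balances adenine nucleotides, had 23.4, 24.2 and 26.6 CPM in wild type and 30.0, 30.7 and 30.7 CPM in the mutant (0.33 ± 0.07). Crot, a peroxisomal carnitine acyltransferase, had 57.4, 53.3 and 56.1 CPM in wild type and 64.6, 64.8 and 68.6 CPM in the mutant (0.27 ± 0.06). Uqcrfs1, a subunit of respiratory complex III, had the smallest change of all 104 genes (0.17 ± 0.04).

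Signalling genes formed the next group. Lpar2, a receptor for lysophosphatidic acid, had 17, 18.5 and 18.5 CPM in wild type and 23.5, 24.8 and 25.9 CPM in the mutant (0.48 ± 0.11). Rin3, an exchange factor for Rab5 GTPases, had 104, 99.8 and 101 CPM in wild type and 128, 116 and 137 CPM in the mutant (0.35 ± 0.07). Rxrb, a nuclear receptor that pairs with other nuclear receptors, had 81.5, 80.9 and 90.9 CPM in wild type and 106, 99.5 and 103 CPM in the mutant (0.31 ± 0.06). The groups did not overlap in any of these, which the rule for giving values of every library required. For Rxrb the wild type range was wider than the gap to the mutant libraries. The adenylate cyclase gene Adcy3 (0.24 ± 0.06), the Arf regulator Agap1 (0.26 ± 0.05) and the protein kinase C gene Prkch (0.22 ± 0.05) had smaller changes. Prkch starts 316579 bases from Hif1a, which fell.

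Other genes with per-library values in this group were Mfap3l, Oit3, Tgm2 and Krba1. Mfap3l had 19, 21.7 and 20.5 CPM in wild type and 29.9, 25.6 and 26.8 CPM in the mutant (0.44 ± 0.10). Oit3 had 21.1, 21.6 and 23.6 CPM in wild type and 28.1, 25.7 and 30.8 CPM in the mutant (0.37 ± 0.08). In both, the gap between the groups was narrower than the range of the mutant libraries. Tgm2, transglutaminase 2, which crosslinks proteins, had 229, 203 and 210 CPM in wild type and 258, 240 and 273 CPM in the mutant (0.29 ± 0.06), and Gm20412 and Rprd1b overlap it on the other strand. Krba1 had 35.4, 39.1 and 39.2 CPM in wild type and 46.5, 46.3 and 43.9 CPM in the mutant (0.29 ± 0.06). None of the 19 higher genes was called whichever library was left out. All 19 were lost without mutant replicate 3 (edgeR adjusted p 0.0528 to 0.212), 17 each without wild type replicates 1 and 2, 15 without mutant replicate 1, 11 without mutant replicate 2 and 9 without wild type replicate 3.

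The genes with which osteoclasts resorb bone had mostly small positive values. Among all genes tested 50.9% had a positive value and 0.142% were called higher. Of 27 tested resorption and fusion genes Ocstamp, needed for precursors to fuse, was the 1 called, from 387 ± 27.4 to 452 ± 16.2 CPM (0.25 ± 0.06, edgeR adjusted p = 0.0493), and 19 had positive values, with a median of 0.13. Ocstamp was not called without wild type replicate 1 or 2 or without any of the mutant replicates. Acp5, which encodes the osteoclast enzyme TRAP, lay just beyond the threshold, from 7170 ± 281 to 8920 ± 460 CPM (0.34 ± 0.08, edgeR adjusted p = 0.0509). Not all pointed the same way, since Cd200r1 (-0.43 ± 0.11) and Adam8 (-0.30 ± 0.07) had negative values, both with an edgeR adjusted p of 0.0625. Of 18 subunits of the vacuolar proton pump, which acidifies the resorption space, Atp6v1f was called (0.23 ± 0.05) and 17 had positive values, with a median of 0.13. The groups did not overlap, mutant above wild type, for 13 of the 18, against 9.83% of all genes tested. Atp6v1f, like Ocstamp, was called without wild type replicate 3 but not without any of the other 5 libraries. Tcirg1, the osteoclast form of the a subunit, was at 0.21 ± 0.06 (edgeR adjusted p = 0.0870), and Atp6v0a1, which encodes another form of that subunit, at -0.25 ± 0.08 (edgeR adjusted p = 0.133). Osteoclast transcription factors, 22 of them, had a median of 0.03 and none was called. That median was 0.05 without wild type replicate 3 or mutant replicate 2 and 0.001 without mutant replicate 3. Over RANK, immunoreceptor and M-CSF receptor signalling genes the median was 0.03, or 0.02 without mutant replicate 1, again with none of 22 called.

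Among lists of energy metabolism single genes were called and the medians were small. For comparison, 50.9% of all genes tested had a positive value and 0.142% were called higher. Of 72 nuclear-encoded respiratory chain genes 67 had positive values (median 0.09), and 32 had groups that did not overlap with the mutant higher (9.83% over all genes tested), but only Uqcrfs1 was called, and not with any of the 6 libraries left out. Of 20 tricarboxylic acid cycle genes 19 were positive (median 0.10) and none was called, with Idh3g (0.19 ± 0.05, edgeR adjusted p = 0.0566) closest. Of 24 cholesterol genes 22 were positive (median 0.20) and none was called. Pdk2 was the 1 called gene of 13 that control pyruvate dehydrogenase (median 0.11, or 0.16 without wild type replicate 2), and it was not called without mutant replicate 3. Cell cycle and DNA replication genes had 39 negative values of 40 (median -0.11) and none was called. That median was -0.17 without mutant replicate 2 and -0.08 without mutant replicate 3.

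**Figure D4:**
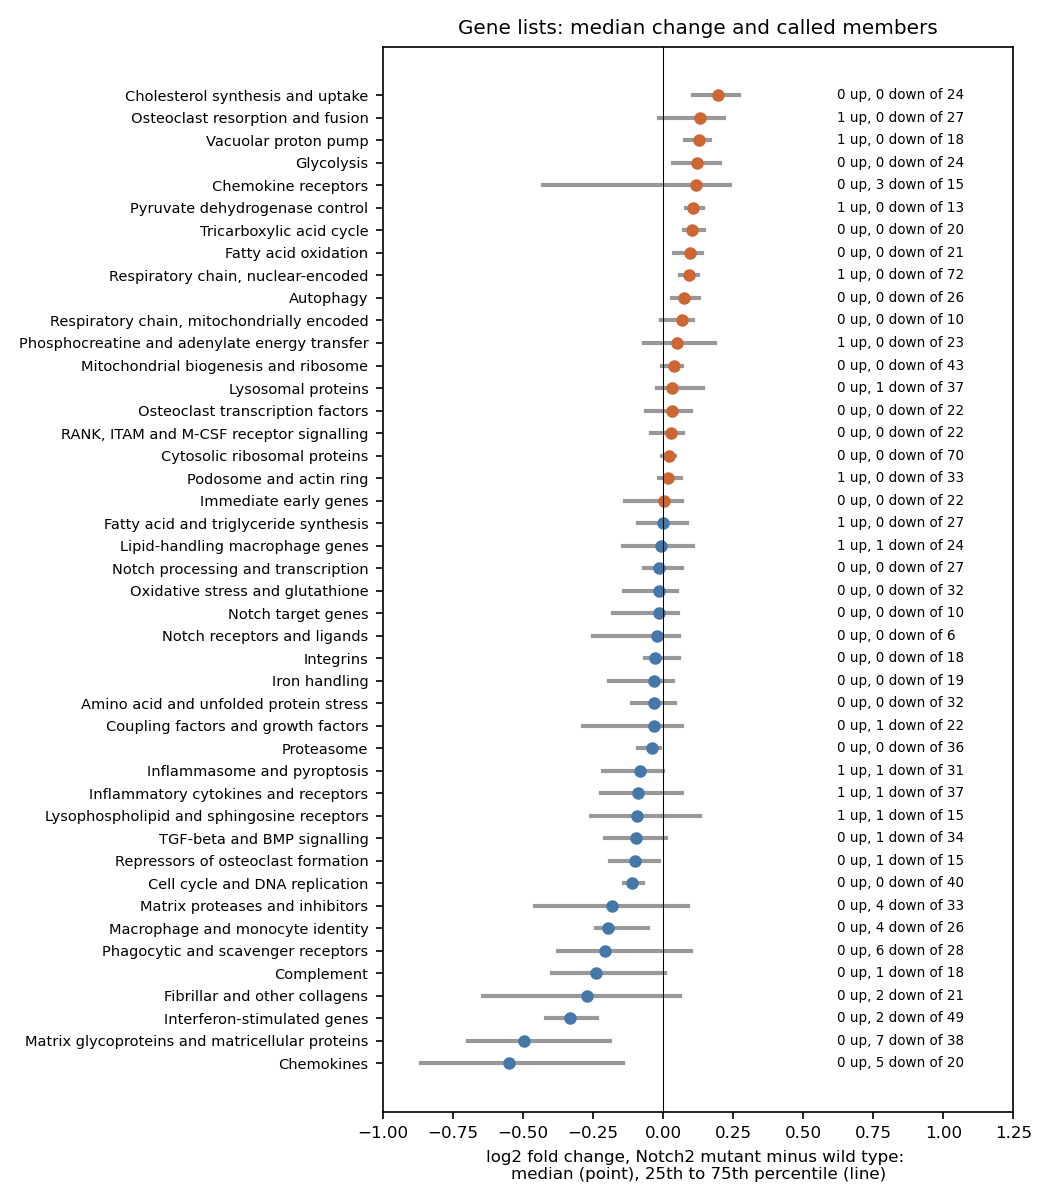
Median log2 fold change (point) and its 25th to 75th percentile (line) over the tested genes of 44 lists, with the numbers of called members. Chemokines (-0.55) and matrix glycoproteins (-0.50) lie lowest, and the cholesterol list (0.20) lies highest with no called member.

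The Notch pathway itself showed little movement. Notch2 (ENSMUSG00000027878, chromosome 3, 98013527 to 98150361, GRCm38) had 161, 173 and 163 CPM in wild type and 163, 162 and 143 CPM in the mutant. The groups overlapped, with a log2 fold change of -0.07 ± 0.06 and an edgeR adjusted p of 0.659. Since the labels do not place the mutation in the gene, this level does not check which libraries carry it. None of 6 tested receptors and ligands, 27 processing and transcription genes or 10 target genes was called, against 0.776% of all genes tested. The medians of these lists were -0.02, -0.01 and -0.02, within 0.09 of 0 whichever library was left out. The members with the smallest p were Rbpj, given above, Notch1 (-0.31 ± 0.11, edgeR adjusted p = 0.199) and Psen2, a subunit of the protease that releases the Notch intracellular part (0.25 ± 0.07, edgeR adjusted p = 0.107).

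The Hes and Hey repressors, the best known Notch targets, were too scarce for the fit. Hes1 had 6, 11 and 6 counts in wild type and 3, 2 and 2 in the mutant, with no overlap. Scaled to depth, this is a ratio of 0.314 (95% counting interval 0.114 to 0.757), and 0.375 (0.125 to 1.03) without wild type replicate 2. Heyl had 1, 0 and 2 counts in wild type and 7, 3 and 9 in the mutant, the opposite direction, with a ratio of 6.54 (1.93 to 34.5). That ratio was 4.07 (1.20 to 21.5) without wild type replicate 2 and 12.7 (2.02 to 529) without wild type replicate 3, whose 2 counts were most of the wild type total. For both genes the two-sided exact permutation test of CPM over 6 libraries gave p = 0.10, the smallest it can give, or 0.30 adjusted over the 6 scarce genes tested (Hes1, Hes5, Hey1, Hey2, Heyl and Nrarp). The other members had intervals that included 1: 0.885 (0.246 to 3.08) for Hes5, 2.41 (0.550 to 14.4) for Hey1, 1.03 (0.0749 to 14.2) for Hey2 and 2.07 (0.108 to 122) for Nrarp. These intervals cover counting error only, and differences of that size were not resolved at this depth.

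The genes around the mutated locus did not move together. Within 5 Mb of Notch2, 1 of 104 tested genes was called (0.962%), Fcgr1, and within 20 Mb 2 of 331, Csf1 and Fcgr1 (0.604%). On the rest of the genome outside chromosome 3 it was 102 of 12729 (0.801%). The median within 5 Mb was 0.03, or -0.01 without mutant replicate 3.

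Set beside the Hes1 deletion libraries, the Notch2 difference had mostly the same direction and smaller values, and no gene was shown to differ between the backgrounds. The 6 deletion libraries share no library with the comparison above, but both were fitted together with 1 estimate of spread. In them 2 genes were called (0.0149%), Timp3 (-1.33 ± 0.21) and Tnc (-0.68 ± 0.09), both of which also fell with Hes1 intact. At an unadjusted edgeR p under 0.05 there were 897 genes (6.69%). Of the 85 lower genes 83 were negative in the deletion libraries, where 49.4% of all tested genes were negative, and all 19 higher genes were positive. The median was -0.21 for the lower genes (from -0.50) and 0.14 for the higher genes (from 0.31). Of the 104 genes 100 had a smaller absolute value with the deletion. For 53 of them the groups did not overlap in the same direction, against 12.5% of all genes tested in either direction (6.06% higher, 6.4% lower). The 104 were chosen for their values with Hes1 intact, which favours larger values there. The average stromal marker level was also lower in the mutant deletion libraries (2.40 to 2.82 log2 CPM) than in the wild type ones (3.16 to 3.25). Its part in the shared direction was not tested.

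The interaction, the test of whether the Notch2 difference itself depends on Hes1, called 0 of 13403 genes in edgeR, with a lowest adjusted p of 0.999. At an unadjusted p under 0.05 there were 506 genes (3.78%), and DESeq2 and limma-voom also called 0. Without wild type Hes1 deletion replicate 3 it called 12. Of the 104 genes 54 had an unadjusted edgeR interaction p under 0.05. The interaction contains the Hes1 loxP difference for which these genes were chosen. A raised share is therefore built in and does not show that the difference depends on Hes1. Among the genes with the smallest unadjusted interaction p, each at 0.999 after edgeR adjustment, were Pf4 and Ccl12. Pf4 was at -0.69 ± 0.08 with Hes1 intact and -0.15 ± 0.09 with the deletion, and Ccl12 at -1.72 ± 0.27 and -0.05 ± 0.29. Plekhg1 was at -0.77 ± 0.16 and 0.20 ± 0.16, and Cebpb at -0.44 ± 0.09 and 0.05 ± 0.09. Those were the 2 genes of the 85 with a positive value in the deletion libraries. Other genes had close to the same value in both backgrounds: Timp3 (-1.29 and -1.33), Cald1 (-0.84 and -0.84), Tagln (-0.83 and -0.81), Gja1 (-0.41 and -0.43) and Cxcl12 (fitted at -2.98 and -2.61). Tagln and Cxcl12 are among the stromal markers.

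**Figure D5:**
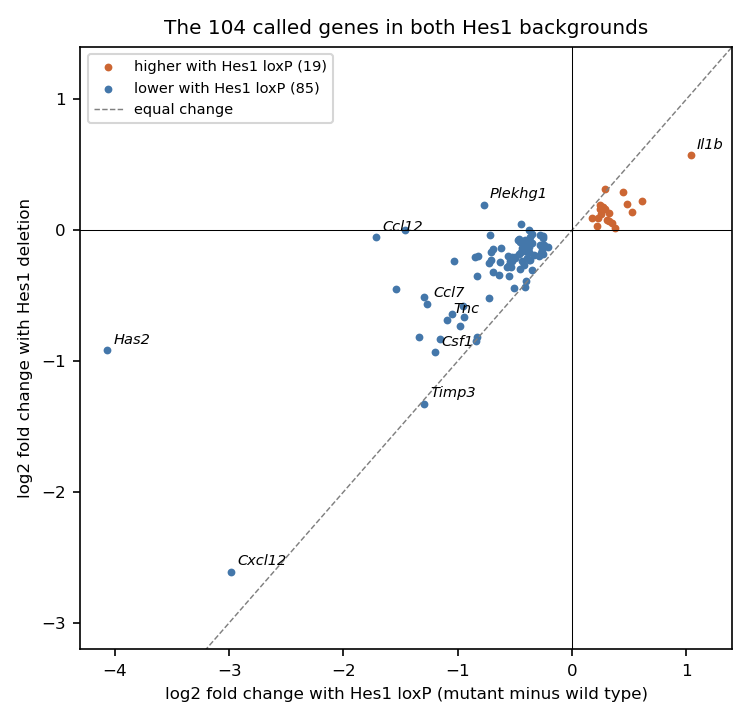
Log2 fold change of the 104 called genes with the Hes1 deletion (vertical) against that with Hes1 loxP (horizontal), lower genes in blue and higher genes in orange, with the line of equal change dashed. Most points lie between the dashed line and zero, Ccl12 lies near zero on the vertical axis and Timp3 on the line.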

How the data were processed

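RNA of 12 osteoclast cultures was sequenced as stranded mRNA libraries with paired reads of 75 bp in 1 pool, per the labels' protocols. The authors deposited raw read counts for each gene ID as whole numbers. The submitters' processing notes name the tools HTSeq, HISAT2, SAMtools, DESeq2 and Picard and the build GRCm38. For tool versions, annotation and strand option: not given in the sources used here. Reads of overlapping antisense genes may therefore be mixed. Each table lists 55414 gene IDs and 5 summary rows, which held 15.8 to 19.0% of its total and were left out. GENCODE M21 named 52133 of the IDs, and positions are from it, 1-based.

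All 12 libraries entered 1 fit in edgeR 4.0.16 (R 4.3.3; a mean per group, TMM scaling, filterByExpr with minimum count 10 and minimum total 15), which kept 13403 genes. Calls are genes under 0.05 after Benjamini-Hochberg adjustment over these genes in quasi-likelihood F-tests (two-sided). Standard errors derive from the F statistic, and every log2 fold change is Notch2 mutant minus wild type. CPM is scaled to the total counts in genes, without TMM and without gene length. Overlap of groups was judged on log2 CPM with a prior count of 2. Counting intervals are exact binomial and leave out the spread between cultures. Without molecular identifiers reads are not independent molecules.

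The members and gene lists were chosen with earlier results of these data known. Lists are described by counts and medians, with no test. Any called gene may be named. Values of every library are given for the 16 lower and 12 higher genes with the largest changes among calls whose mean log2 CPM reached 1, whose groups did not overlap and whose name was not of the clone type. Each list may add by name its 4 members of lowest adjusted p. Has2, Cxcl12, Ccl2, Ccl8, Timp2, Tnxb, Ms4a6c, Heyl and the other scarce Notch targets fall outside this rule.

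The alternatives tried were a replicate block, the 6 libraries alone, each library left out, a covariate of stromal marker level, RLE scaling, the filter removed or raised to a mean count of 50, DESeq2 1.42.0 without the filter, limma-voom (limma 3.58.1) and a minimum absolute log2 fold change of 1. Count ratios without each library were added after the data were seen. Tested on simulated counts for this comparison (13231 genes, 200 changed), the fit recovered 85% of 1.5-fold and 99% of 2-fold changes, with 13 false calls among 197. Promoters matched by symbol were available for 9748 of the 13403 genes. The single-cell work in the design text is not analysed here. Not every called gene is named here.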

Additional observations from a re-analysis of the deposited data

How the results depend on the processing

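With Hes1 intact 104 genes were called. The count was 657 without the filter on low counts, 242 with DESeq2, 15 with a minimum log2 fold change of 1 and 2 with the stromal marker level as a covariate, and lay between 27 and 290 with each of the 12 libraries left out (290 without wild type Hes1 deletion replicate 3). It stayed within 1.5 times of 104 with RLE scaling (117), a mean count of at least 50 (94), the 6 libraries alone (127) and limma-voom (110). In the deletion libraries 2 genes were called, against 138 without the filter, 1 with a mean count of at least 50, with limma-voom or with a log2 fold change of at least 1, 0 with the covariate, and 0 to 5 with a library left out. The interaction called 0 genes, against 63 without the filter and 0 to 12 with a library left out. The cause of these changes was not tested. The Hes1 difference of -0.298 CPM lay between -0.354 and -0.236 with a library left out. Among genes named above, Col1a1 turned from -0.54 to 0.16 with the covariate, whose markers include it. A replicate block called 148 genes, 103 of the 104 among them. With Hes1 intact, libraries of the same number correlated at 0.098, 0.107 and 0.077 in their deviations from the group means. Each library correlated best with its own number. With the deletion the same-number values were 0.069, -0.072 and -0.041, and libraries of different number reached 0.121. Not every same-number value was over 0.1, so the numbers were not taken as pairs. The counts of scarce genes limit what can be seen for the Hes and Hey genes.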

Other observations

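Some lists had most members on one side of zero with no gene called, while 50.9% of all genes tested lay above zero. Of 14 tested genes of dendritic cells and MHC class II 12 lay above zero, and the list median was 0.40 on the log2 scale. H2-Aa, a chain of an MHC class II molecule, was at 0.74 ± 0.26 (edgeR adjusted p = 0.193). The markers of these cells other than Cd74 summed to 65.3 to 88.1 CPM in wild type and overlapped the mutant range of 82.3 to 119 CPM. Of 26 autophagy genes 23 had positive values (median 0.08, or 0.05 without mutant replicate 3), as had 19 of 24 glycolysis genes (median 0.12) and 17 of 21 genes of fatty acid oxidation (median 0.10). Of 36 proteasome genes 30 had negative values (median -0.04, and -0.02 to -0.08 with each of the 6 libraries left out). Among growth factors, Inhba, which encodes an activin subunit, was at -0.88 ± 0.21 and was not called (edgeR adjusted p = 0.0588).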
